A study of Mus musculus with 8 samples.

Results

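At 557 of 20010 genes tested (2.78%), H3K27me3 was called different between clone A and clone B with an estimated change over 1.5-fold. Many of these genes had short intervals or few counts. The clones are 2 subclones of a mouse embryonic stem cell line. The comparison sets the 2 libraries of clone A against the 2 libraries of clone B over all 50398 transcript intervals of the count table, and it reads gene functions from 20289 genes with 1 interval each. Of the genes, 13204 were protein coding. Each gene took the interval that shared at least 0.5 of its union with the RefSeq gene, the largest share where there were several. The table covers chromosomes 1 to 10, X, Y and M, and no other chromosome was analysed here.

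Both clones derive from E14tg2a stem cells of 129SV background and stably carry a cRAF-ErT2 expression cassette, a RAF kinase fused to a hormone-binding domain that responds to 4-hydroxytamoxifen (4OHT). The medium for all cells held serum, LIF and 2 uM Chir99021, which inhibits GSK3. It was then changed for 24 h to serum and LIF plus PD173074 at 250 nM, which blocks FGF receptors. Each clone was taken untreated (0 h) and after 2 h in 250 nM 4OHT, so each clone has 2 libraries and the time of sampling is shared by both clones. Chromatin was fixed in 1% formaldehyde for 10 min and precipitated with an antibody to H3K27me3 (CST 9733); of the series' 8 samples, the 4 input libraries were not analysed here. The libraries held column totals of 70378127 and 92518605 counts in clone A, against 81279899 and 85062523 in clone B. Each clone is a single line with 1 library per time, so a p-value measures the spread between these libraries, which may be technical, and a property of the clone cannot be told apart from a property of its cultures.

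H3K27me3 is placed by Polycomb repressive complex 2 and is found over silent developmental regulators, often with CpG-rich promoters, and over broad silent domains. At imprinted genes, which are expressed from the allele of one parent, it can mark the silent allele together with DNA methylation on the other. Stem cell lines kept in culture can lose or gain such allele-specific marks, and sister lines can differ in them. Esr1, the estrogen receptor gene, gave a log2 ratio of clone A over clone B of -0.05 (SE 0.03) and did not pass the test between clones (adjusted p = 0.110 by edgeR's quasi-likelihood test). Counts over a whole transcript cannot separate a cassette from a native gene.

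Density, the count per kb of interval per 1000000 counts of the library's total, had a median of 0.357 over genes. With TMM factors, the densest genes stood above the rest in clone A. Among genes in 10 groups by density, the median log2 ratio of clone A over clone B was 0.17 in the densest group (0.13 at 0 h and 0.20 at 2 h). The other 9 groups had no steady run: from the least dense up, their medians were -0.05, -0.05, -0.02, 0.00, 0.01, -0.01, -0.02, -0.03 and 0.02. The least dense group gave 0.05 at 0 h and -0.15 at 2 h. Of 50037 intervals tested, 8474 (16.9%) passed as higher in clone A, and 5021 (10.0%) as lower, at an adjusted p under 0.05 by edgeR's quasi-likelihood test with time as a block. Per gene, 3026 of 20010 (15.1%) were higher and 1956 (9.78%) lower, of which 320 (1.6%) and 250 (1.25%) were past 1.5-fold. The Hox genes, which pattern the body axis, are the clearest case: 18 of 20 were called higher and 0 lower (median 0.22), beside a median of 0.20 over the 1159 marked genes, those of at least 4 times the median density. Of the marked genes, 596 were called higher and 34 lower.

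A second fit removed a smooth curve over density from each library, which centres the ratios at each density and so brings the numbers of higher and lower calls together by construction. It called 9149 intervals higher (18.3%) and 9139 lower (18.3%). Per gene it called 3093 higher (15.5%) and 3529 lower (17.6%). In this fit 1 Hox gene was higher and 3 were lower (median -0.04, from -0.14 to 0.17), while a curve over mean count in place of density left 11 higher and 0 lower (median 0.18). Hoxa6, for example, had densities of 6.29 and 5.91 in clone A, against 5.07 and 5.004 in clone B, the clone A libraries being above both of clone B; its log2 value was 0.29 with TMM factors and 0.02 once the curve was removed. Hoxd9 was called higher (0.17, SE 0.06), while Hoxd3, Hoxa7 and Hoxd4 were called lower at -0.14, -0.13 and -0.11 and lay above 0 with TMM factors. Neuroectoderm regulators went from 12 higher and 0 lower of 18 to 0 higher and 4 lower. These Hox calls were weak. Without the 0 h library of clone A, Hoxa7 gave -0.21 and was called, but without its 2 h library Hoxd9 gave 0.14, Hoxa7 -0.037 and Hoxd4 -0.10, none called. Without the 0 h library of clone B none of the 4 was called (Hoxd9 0.20, Hoxd3 -0.12, Hoxa7 -0.14, Hoxd4 -0.074), and without its 2 h library Hoxd9 (0.13), Hoxa7 (-0.11) and Hoxd4 (-0.14) were not; Hoxa7 and Hoxd4 also lost their call without the time block. The genes and loci below are given from the fit without the trend.

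**Figure D1:**
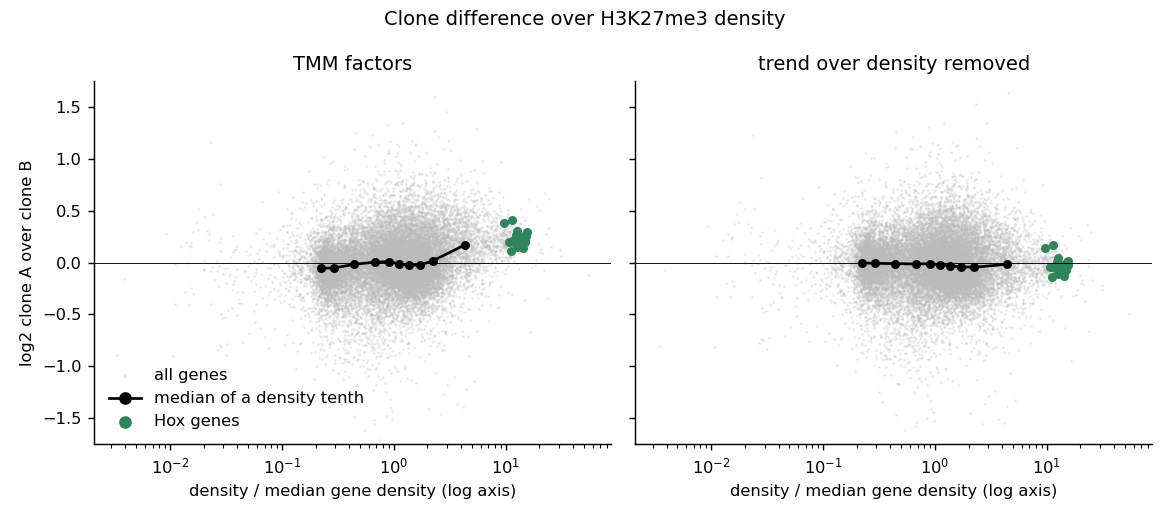
Log2 ratio of clone A over clone B for each gene (y axis) over its density relative to the median gene (x axis, log scale), with TMM factors on the left and with the trend over density removed on the right; points are genes, the line joins the medians of 10 density groups, and Hox genes are green. The most extreme genes lie outside the axes. The densest group's median is 0.17 on the left and -0.02 on the right.

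Past 1.5-fold at that threshold, 255 genes were higher in clone A (1.27% of genes tested) and 302 lower (1.51%). The text below dwells on these genes and on lists, since small changes also passed; the fit has 4 libraries and 1 residual degree of freedom. The 1.5-fold cut was made on the estimate, while the test was against no change. Among genes in 10 groups by interval length, the shortest (median 972 bp) had 39 higher and 80 lower past 1.5-fold. The next group (median 2841 bp) had 53 and 100, and the longest 6 and 6. Of the 255 and 302 genes, 44 and 100 averaged under 50 counts. Each time has its own library of each clone. Among 15601 genes that averaged at least 100 counts, the log2 ratios at 0 h and at 2 h correlated at r = 0.751 across genes, a description since genes are not independent and each gene's length and sequence are shared. Of 233 genes over 1.5-fold higher in clone A at 0 h, 228 (97.9%) were also higher at 2 h, with a median log2 of 0.61. Of 163 genes lower at 0 h, 159 (97.5%) were also lower at 2 h, with a median of -0.57. Over all these genes, 47.0% and 53.0% lay in those directions at 2 h.

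**Figure D2:**
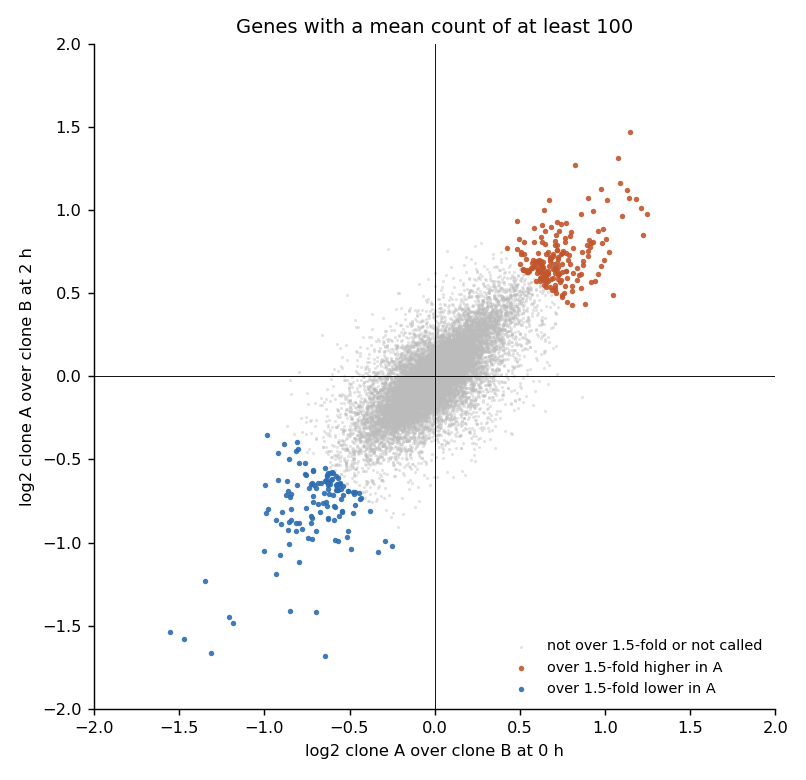
Log2 ratio of clone A over clone B at 0 h (x axis) and at 2 h (y axis) with the trend over density removed, for genes with a mean count of at least 100; orange and blue points are genes called over 1.5-fold higher or lower in clone A in the fit of all 4 libraries. Of 233 genes past 1.5-fold higher at 0 h, 228 lie above 0 at 2 h.

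By the size of the change, among called genes with at least 100 mean counts, the genes highest in clone A after Blcap were Repin1, Adrb3, Zcchc3, Utf1, Apoc2, Setd1b, Atxn1l, Commd7, Ctsk, Snhg11, Gpr173, D1Pas1, Cdkn1b and Rhof, from 1.13 to 0.86. Their densities ran from 0.55 (Atxn1l) to 3.07 (Utf1) times the median gene, below the level of marked genes. Repin1, a zinc finger gene (chr6:48593883-48599082), had 417 and 638 counts in clone A, against 215 and 254 in clone B. Adrb3, the beta-3 adrenergic receptor of fat cells, had 261 and 332 against 135 and 145. Setd1b, a histone H3K4 methyltransferase (chr5:123142105-123168630), had 1814 and 2222 counts against 984 and 1022 (1.03, SE 0.05), the most deeply counted of these genes. Apoc2 is a cofactor of lipoprotein lipase, and Ctsk is the collagen-degrading protease of osteoclasts. In all of these genes both clone A libraries exceeded both clone B libraries in density. The genes were chosen from these same libraries for a large change of the same sign at both times, so this adds no support.

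The genes lowest in clone A were BB283400, Gnasas1, Ccl20, Samd10, Cdkn2b, Sft2d2, Pla2g1b, Ccn1, Slc37a4, Bcam, Exoc8, Chst12, Ephb4, Tnrc18 and Doxl1, from -1.55 to -0.85. Only BB283400 and Cdkn2b were marked, at 4.18 and 4.70 times the median density. Pla2g1b, Bcam, Sft2d2, Chst12, Ephb4, Tnrc18 and Exoc8 were sparse, from 0.42 to 0.73 times. Genes below the median density, in either direction, may hold mostly background reads, and input libraries were not analysed here. BB283400, a noncoding RNA gene (chr6:30176623-30178046), had 76 and 115 counts in clone A, against 239 and 276 in clone B, a log2 difference of -1.55 (SE 0.13). Its neighbours Mirc35hg (-0.66, SE 0.12) and Gm31221 (-1.16, SE 0.15), named after their values were seen, were lower with it. Tnrc18 (chr5:142725981-142822705) had 1140 and 1589 counts against 2308 and 2717 (-0.86, SE 0.04). Within it lies Gm31365, with 228 and 273 counts against 613 and 721 (-1.51), and the rest of Tnrc18 still held 912 and 1316 against 1695 and 1996. Ccn1 encodes a matrix signalling protein and Slc37a4 the glucose 6-phosphate transporter.

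**Figure D3:**
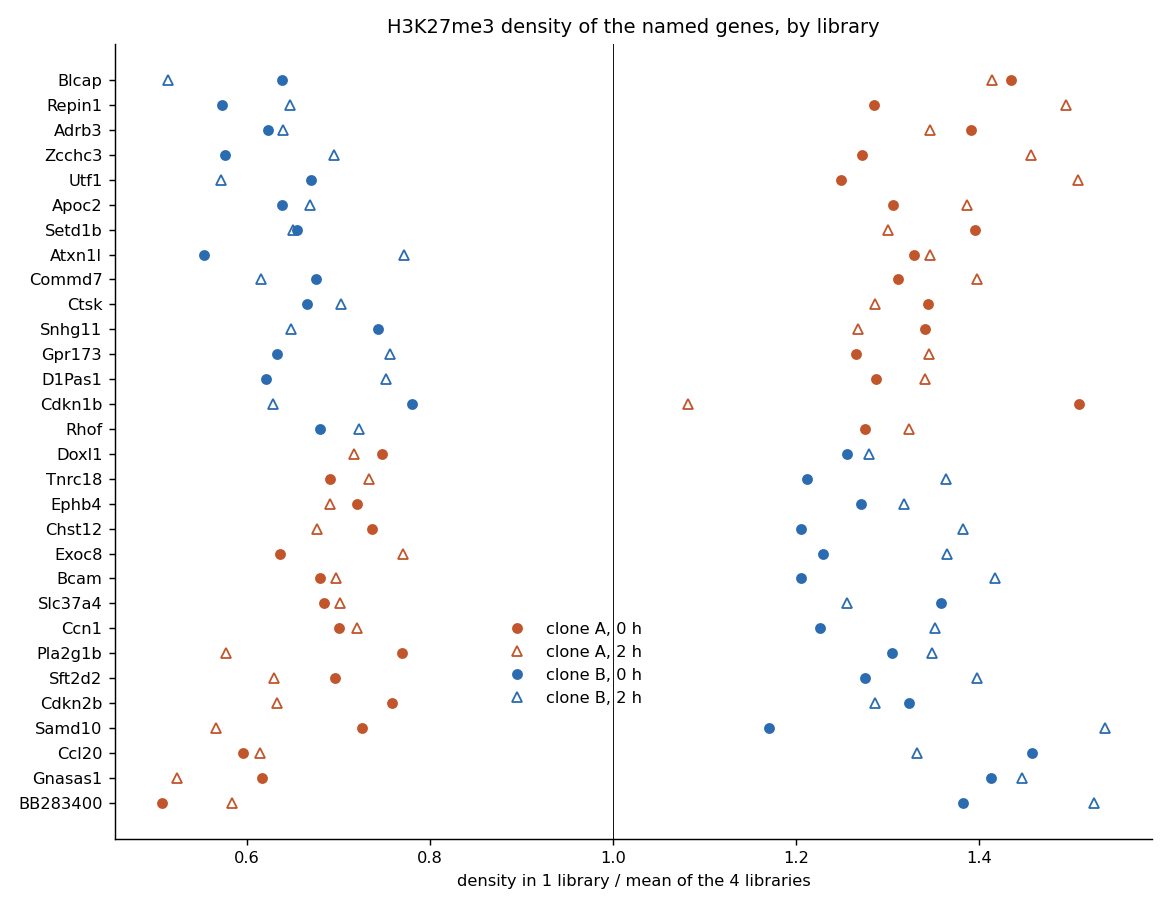
Density in each library divided by the mean of the 4 libraries (x axis) for the 15 genes highest and the 15 lowest in clone A (y axis, in order of the log2 difference); orange is clone A, blue clone B, circles 0 h and triangles 2 h. For each gene shown, both libraries of a clone lie on the same side of the mean. The genes were chosen for their difference in these same libraries, so this follows largely from the choice.

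Promoters are shown, because the mark is known for CpG-rich ones, for the 2 genes of largest change in each direction that have a RefSeq entry, 250 bases before to 50 after the start, 5' to 3' on the gene's strand, GRCm38.p6. Capitals mark the dinucleotide CG, which reads the same on both strands and which 94.15% of the 16036 promoters of tested genes with an entry hold at least once. Blcap lies at chr2:157566312-157566611 and Zcchc3 at chr2:152414995-152415294, both on the minus strand. BB283400 lies at chr6:30176373-30176672 and Ccl20 at chr1:83116516-83116815, both on the plus strand.
Blcap: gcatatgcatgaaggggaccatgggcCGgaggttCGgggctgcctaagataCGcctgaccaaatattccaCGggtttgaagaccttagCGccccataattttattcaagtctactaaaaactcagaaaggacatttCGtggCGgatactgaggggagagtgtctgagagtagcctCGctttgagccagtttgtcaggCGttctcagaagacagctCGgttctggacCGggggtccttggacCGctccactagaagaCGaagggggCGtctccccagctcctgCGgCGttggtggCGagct
Zcchc3: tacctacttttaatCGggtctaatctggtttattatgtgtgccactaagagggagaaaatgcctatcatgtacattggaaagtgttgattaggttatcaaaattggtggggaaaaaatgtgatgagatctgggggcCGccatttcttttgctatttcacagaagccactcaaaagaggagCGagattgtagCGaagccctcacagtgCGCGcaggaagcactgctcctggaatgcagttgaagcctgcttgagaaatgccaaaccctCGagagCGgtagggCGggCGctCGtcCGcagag
BB283400: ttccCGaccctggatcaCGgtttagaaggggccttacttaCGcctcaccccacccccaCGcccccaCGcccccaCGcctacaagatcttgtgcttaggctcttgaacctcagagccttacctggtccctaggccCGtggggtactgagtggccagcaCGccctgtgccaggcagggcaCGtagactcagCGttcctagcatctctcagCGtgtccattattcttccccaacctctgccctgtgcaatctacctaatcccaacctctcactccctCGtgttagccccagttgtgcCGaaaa
Ccl20: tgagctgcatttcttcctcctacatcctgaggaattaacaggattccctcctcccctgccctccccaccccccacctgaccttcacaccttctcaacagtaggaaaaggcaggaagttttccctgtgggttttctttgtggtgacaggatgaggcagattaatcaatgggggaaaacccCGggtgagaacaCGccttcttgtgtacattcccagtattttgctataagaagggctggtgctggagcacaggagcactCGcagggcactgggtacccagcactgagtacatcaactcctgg
They hold 17, 12, 13 and 3 CG, beside a median of 8 over all these promoters and 15 over those of marked genes. The first 2 belong to genes higher in clone A and the last 2 to genes lower. Genes over 1.5-fold higher had a median of 6 CG and genes over 1.5-fold lower a median of 10. Over all called genes the order was reversed, with a median of 9 CG for genes higher and 7 for genes lower. In 5 equal groups by promoter GC content, from the lowest up, the shares of genes called higher were 8.88%, 12.75%, 17.56%, 18.4% and 18.9%, and the shares called lower 16.1%, 21.8%, 18.55%, 15.15% and 16.9%. GC content was not part of the fit, and its part in the calls was not tested.

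Imprinted loci held several of the largest differences. Blcap and Nnat are nested genes on chromosome 2; Nnat, a small membrane protein gene of the nervous system, lies inside an intron of Blcap and is expressed from the paternal allele. The Blcap interval (chr2:157556362-157566361, mm10) had 321 and 416 counts in clone A, against 165 and 139 in clone B. The log2 difference was 1.31 (SE 0.11, adjusted p = 1.59e-30 by edgeR). Nnat itself (chr2:157560078-157562525) had 106 and 138 counts against 49 and 50 (log2 1.34, SE 0.18). A longer Nnat transcript interval that starts upstream gave 1.73 (SE 0.14), with 237 and 311 counts against 91 and 79. Outside that longer interval, the rest of Blcap held 84 and 105 counts in clone A, against 74 and 60 in clone B, so most of the gap between the clones lay within it.

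The Gnas cluster, which encodes the stimulatory G protein alpha subunit and several imprinted transcripts, showed both directions in neighbouring intervals. Gnasas1, an antisense RNA at its 5' end (chr2:174281237-174295436), had 202 and 226 counts in clone A, against 535 and 573 in clone B (log2 -1.34, SE 0.09, adjusted p = 2.19e-47 by edgeR). An interval within it (chr2:174284306-174289173) gave -1.41 (SE 0.11). Further along, an interval of 2947 bp (chr2:174297859-174300805) had 1185 and 1749 counts in clone A, against 602 and 697 in clone B, a log2 difference of 0.96 (SE 0.06). Gnas as a whole (chr2:174284320-174346744) had 4918 and 6567 counts against 3654 and 3933, for 0.56 (SE 0.03). Gnasas1 lies antisense to Gnas, and no source used here says whether strand was used in counting, so the strand of these reads cannot be told.

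A similar split was seen at Plagl1, an imprinted zinc finger gene that restrains growth. Its first part carries Hymai, a noncoding RNA from the same imprinted promoter (chr10:13090845-13095900), with 358 and 472 counts in clone A, against 234 and 284 in clone B (log2 0.67, SE 0.09). The rest of Plagl1 held 537 and 588 counts in clone A, against 1085 and 1118 in clone B. Clone A was thus higher over the start and lower over the body, and the whole Plagl1 interval (chr10:13090788-13131694) gave -0.44 (SE 0.05).

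In the Snrpn region of chromosome 7, Mkrn3, a ring finger gene, had 83 and 137 counts in clone A, against 56 and 46 in clone B (log2 1.13, SE 0.19), and Peg12 had densities of 2.92 and 3.40 against 1.752 and 2.15 (0.51, SE 0.07). Their neighbours Magel2 (-0.02, SE 0.06) and Ndn (-0.11, SE 0.10) did not pass. Kcnq1ot1, the noncoding RNA that silences its neighbours on the paternal allele, was higher in clone A (0.32, SE 0.03; 7339 and 9238 counts against 6242 and 6525). Kcnq1 around it gave -0.03 (SE 0.02) and Cdkn1c, a target of that silencing, -0.05 (SE 0.06), and neither passed. With TMM factors, Kcnq1 and Cdkn1c were called higher, at 0.16 and 0.21. H19, the maternal noncoding RNA, was called higher (0.40, SE 0.10) and Igf2, the paternal growth factor beside it, lower (-0.11, SE 0.03; 0.13 and called higher with TMM factors). Igf2 lost its call without the 0 h library of clone A (-0.078), the 0 h library of clone B (-0.11) or its 2 h library (-0.10). With TMM factors Magel2 and Ndn also lay above 0, at 0.18 and 0.075, and were not called.

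Of 63 imprinted genes tested, 15 were higher and 19 lower, beside 15.5% higher and 17.6% lower over all genes. Their median was -0.04, beside -0.02 over all genes, and 0.02 with TMM factors. The 4 past 1.5-fold were all higher in clone A: Nnat, Blcap, Mkrn3 and Hymai. Nnat lies within Blcap, so the intervals share reads. Over all genes, 1.27% were past 1.5-fold higher and 1.51% lower. Sfmbt2, a Polycomb-related gene, was also higher (0.40, SE 0.03). The lowest of the list was Plagl1; Gnasas1 is not on it. Atp10a, a lipid flippase gene near Ube3a, had 4060 and 5265 counts in clone A, against 6299 and 6499 in clone B (-0.42, SE 0.03). Of 5 measured genes of the Peg3 domain, 4 were lower in clone A, with Zim2 at -0.42, Peg3 at -0.32, Usp29 at -0.27 and Zim1 at -0.26 (-0.20 and not called without the 2 h library of clone B), and Zim3 (-0.11, SE 0.08) did not pass. On chromosome 6, Pon3 and Pon2 gave -0.34 and -0.29, and Ppp1r9a, between them and Peg10, gave -0.125. Peg10 itself gave -0.09 (SE 0.07) and did not pass. The counts do not separate the parental alleles.

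**Figure D4:**
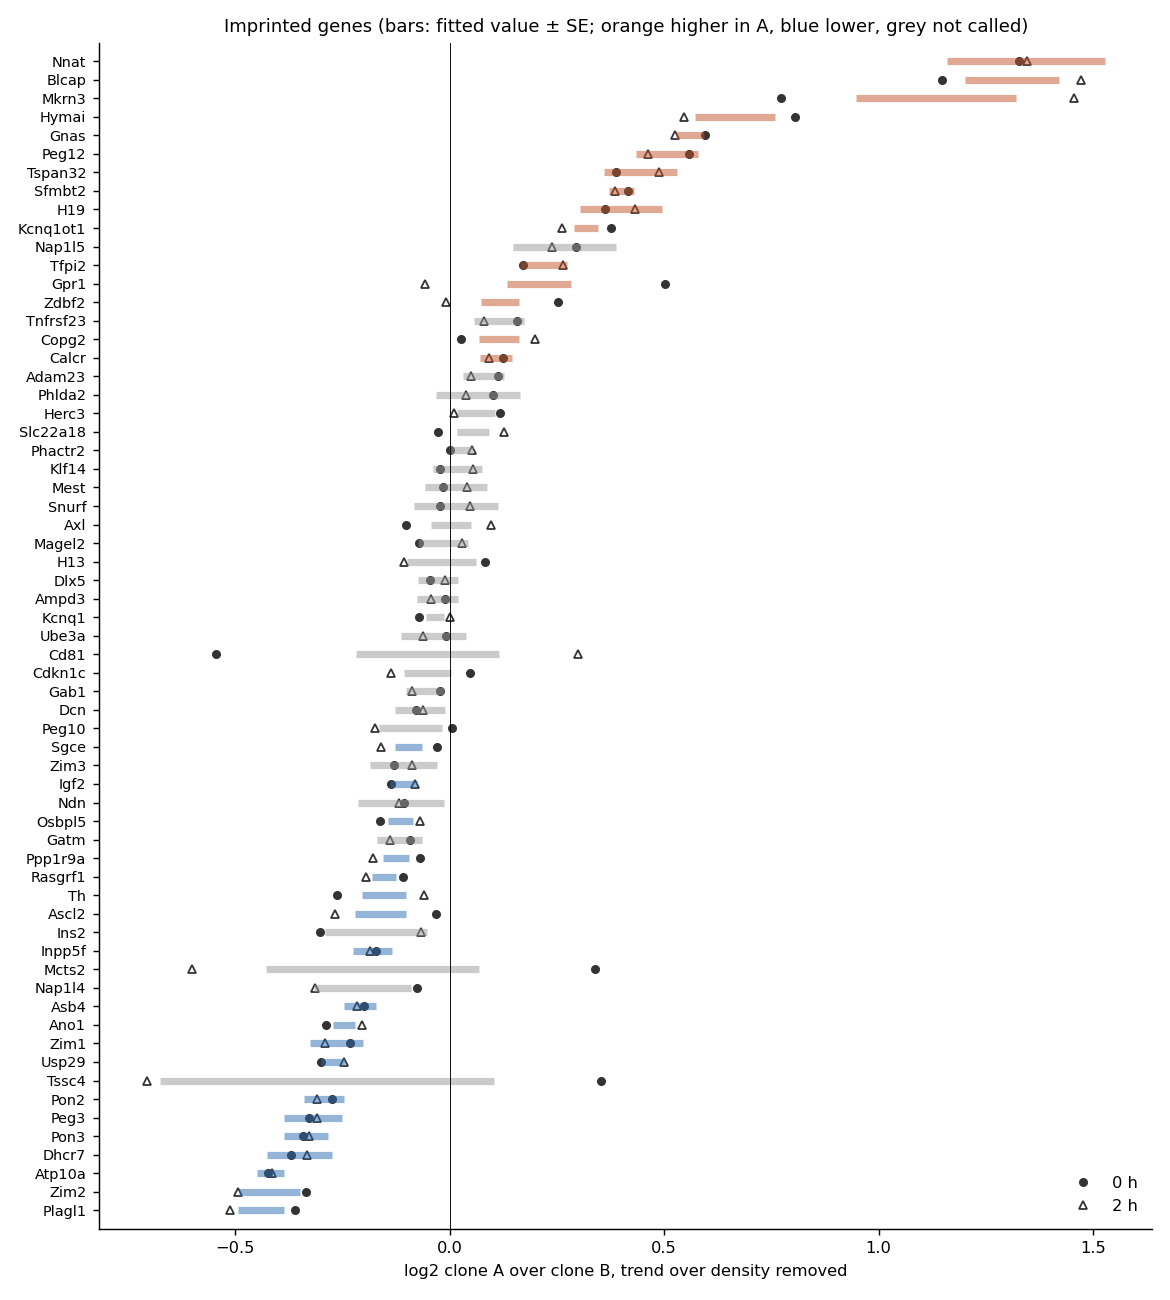
Log2 ratio of clone A over clone B (x axis, trend over density removed) for the 63 imprinted genes tested (y axis); circles are 0 h, triangles 2 h, and bars span the fitted value ± SE, orange for genes called higher in clone A, blue for lower and grey for not called. Nnat, Blcap and Mkrn3 lie past 0.7 at both times.

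The only coding genes both marked and over 1.5-fold lower in clone A were a neighbouring pair of cell cycle inhibitors. Cdkn2a, which encodes the p16 and ARF tumour suppressors and is silenced by Polycomb in growing cells (chr4:89274473-89294619), had 2234 and 2716 counts in clone A, against 4054 and 4077 in clone B. Cdkn2b, its neighbour that encodes p15 (chr4:89306289-89311032), had 425 and 466 counts against 856 and 871. The log2 differences were -0.84 (SE 0.04) and -1.06 (SE 0.07), with adjusted p = 1.03e-115 and 3.24e-53 by edgeR. Both genes were still dense in clone A, with mean densities of 1.52 and 1.17 against 2.43 and 2.19 in clone B. Cdkn1b, encoding p27, moved the other way at a low level, with 139 and 131 counts in clone A, against 83 and 70 in clone B (0.87, SE 0.16). Cdkn2c was called lower at -0.12 (SE 0.04), but gave 0.13 with TMM factors and, leaving out libraries, -0.24 without clone A at 0 h (called), 0.012 without clone A at 2 h, -0.061 without clone B at 0 h and -0.17 without clone B at 2 h (not called). Cdkn2d (-0.49, SE 0.23) and Cdkn1c did not pass. Over the 6 genes the median was -0.30 with 1 higher and 3 lower, and -0.17 with 2 and 2 with TMM factors. Over all genes, 15.5% were higher and 17.6% lower with the trend removed.

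Pluripotency genes had a low median density, 0.318 times that of all genes over 15 naive genes and 0.252 times over 10 general ones. Utf1, a chromatin factor of stem cells (chr7:139943856-139945112), had 121 and 192 counts in clone A, against 75 and 67 in clone B (log2 1.06, SE 0.16, adjusted p = 4.1e-10 by edgeR), and was the only gene called among 10 general pluripotency genes. Tbx3, a T-box factor of the naive state, had 261 and 297 counts against 151 and 185 (0.78, SE 0.12). Tet1, which oxidises methylcytosine, and Prdm14 were called higher at 0.23 each, while Nr5a2 (-0.25) and Dppa3 (-0.18) were called lower. These 4 are small and Tet1, Prdm14 and Dppa3 lost their call in 3 of the fits that leave out a library. Tet1 gave 0.19, 0.25 and 0.22, and Prdm14 0.15, 0.23 and 0.23, without clone A at 0 h and clone B at 0 h and 2 h. Dppa3 gave -0.16, -0.14 and -0.23 without clone A at 2 h and clone B at 0 h and 2 h, and -0.0033 with TMM factors. Nanog (-0.19, SE 0.14), Sox2 (-0.27, SE 0.34) and Klf4 (0.25, SE 0.22) did not pass. Over 15 naive genes the median was 0.15, with 3 higher and 2 lower, beside 15.5% higher and 17.6% lower over all genes. This was the only list of at least 5 genes with a median of 0.1 or more, and it fell to 0.07 at 2 h alone.

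Of 9 formative and primed epiblast genes, 2 were higher and 1 lower (median 0.06), beside 15.5% higher and 17.6% lower over all genes. Dnmt3b, the de novo DNA methyltransferase (chr2:153649449-153687730), had 749 and 1069 counts in clone A, against 503 and 714 in clone B (0.60, SE 0.06). Its first 10397 bp held 507 and 743 counts against 296 and 402. An interval over the remaining 27885 bp gave 0.22 (SE 0.10, adjusted p = 0.0830 by edgeR) and did not pass; the difference between the parts was not tested. Commd7, the gene before it, had 1480 and 2074 counts against 881 and 840 (0.99, SE 0.05). Lefty2, a Nodal antagonist, was higher in clone A (0.58, SE 0.09) and Cer1, another antagonist of Nodal, lower (-0.56, SE 0.12). Tcf15, a bHLH factor of the exit from pluripotency, had 293 and 386 counts against 175 and 223 (0.81, SE 0.11). Tead4, a trophectoderm regulator, had 2352 and 3406 counts against 1653 and 1829 (0.76, SE 0.04), while its fellow regulators Gata3 and Gata2 gave -0.26 and 0.20 (-0.087, not called, and 0.43 with TMM factors).

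Marker lists of other cell types had medians within 0.1 of 0. The counts below stand beside 15.5% higher and 17.6% lower over all genes tested. Among primitive endoderm genes 0 of 10 were higher and 2 lower (median -0.06), among trophectoderm genes 2 of 11 higher and 5 lower (-0.03), and among mesendoderm genes 2 of 12 higher and 3 lower (-0.03); the medians of the last 2 lists lay above 0, at 0.08 and 0.22, with TMM factors. Of 15 fibroblast genes, 4 were higher and 5 lower (median -0.07). The higher ones included Vim, the intermediate filament of mesenchyme, at 0.66, Prrx2 at 0.51 and Thy1 at 0.44. The lower ones included Lum, a matrix proteoglycan, at -0.51, and are not all named here. Among ERK-responsive genes 2 of 13 were higher and 5 lower (-0.06, but 0.14 with TMM factors), with Phlda1 at 0.37 and the feedback inhibitors Spry1, Dusp4 and Spred1 at -0.36, -0.27 and -0.26. Phlda1 lost its call without the 0 h library of clone B (0.23), Spry1 and Spred1 without its 2 h library (-0.24 and -0.18), and Dusp4 with TMM factors (-0.13). The density of the mark does not measure how many cells of a type a culture held.

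The Pax genes, regulators of eye, neural tube and muscle, were lower in clone A at 6 of 7 members (median -0.12), beside 17.6% of all genes. Pax3 gave -0.28, Pax4 -0.21, Pax6 -0.18, Pax1 and Pax5 -0.12 and Pax8 -0.11, each with an SE of 0.06 or less, and Pax7 (-0.02) did not pass. With TMM factors the median was 0.00 and 1 was called, higher, and with a curve over mean count it was 0.01, so this direction rests on the density curve. Without the 0 h library of clone B, Pax4 (-0.15), Pax1 (-0.12), Pax5 (-0.12) and Pax8 (-0.079) lost their call. Pax1 (-0.12), Pax5 (-0.11) and Pax8 (-0.13) lost it without the 2 h library of clone B, and Pax8 (-0.098) without that of clone A. Eya1, a phosphatase that acts with homeodomain factors, had 2266 and 2878 counts in clone A, against 3967 and 4156 in clone B (-0.63, SE 0.04) and gave -0.61 with TMM factors; Six5 gave -0.39 (-0.19 and not called with TMM factors) and Eya4 -0.15. Sox13 was higher (0.49, SE 0.03) among 10 Sox genes with 1 call. Pou2f3, the factor of tuft cells, was lower (-0.61, SE 0.03) and Pou2f2, of B cells, higher (0.47, SE 0.03). Foxo4 was lower (-0.70, SE 0.16; -0.40 and not called without the 2 h library of clone A) and Foxi3 higher (0.45, SE 0.06).

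Receptors and signals of cell contact included large changes at single genes of families whose medians were near 0. Calls in these families stand beside 15.5% higher and 17.6% lower over all genes tested. Ephb4, the venous receptor of ephrin-B2, had 242 and 305 counts in clone A, against 493 and 535 in clone B (-0.87, SE 0.09), and Epha4 (-0.49) and Ephb1 (-0.29) were lower while Ephb2 was higher (0.43). Over 17 Eph and ephrin genes the median was 0.02, with 6 higher and 4 lower, and it was 0.12 with TMM factors and -0.03 with local gene number also removed. Ccl20, the chemokine that binds Ccr6 (chr1:83116766-83119167), had 107 and 145 counts in clone A, against 302 and 289 in clone B (-1.29, SE 0.12). Over 99 cytokine and chemokine genes the median was -0.02 with 22 higher and 19 lower, but 0.06 with 22 and 7 with TMM factors. Cacna1a, a neuronal calcium channel, was the only channel gene over 1.5-fold (0.59, SE 0.03) among 27 sodium and calcium and 55 potassium channel genes.

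Of 19 genes for subunits of the Polycomb complexes themselves, 3 were higher and 1 lower (median 0.07), beside 15.5% higher and 17.6% lower over all genes: Bcorl1 gave 0.50 (SE 0.04), Bmi1 0.13 (SE 0.04), Kdm2b 0.10 (SE 0.04) and Bcor -0.09 (SE 0.03). Bcorl1 kept its call without each library. Bmi1 gave 0.023 without clone A at 0 h and 0.096 without clone B at 2 h, neither called, and gave 0.24 without clone A at 2 h. Kdm2b lost it without clone A at 2 h (0.038), clone B at 0 h (0.062), clone B at 2 h (0.15) or the time block, and gave 0.16 without clone A at 0 h. Bcor lost it without clone A at 2 h (-0.075), clone B at 0 h (-0.10) or clone B at 2 h (-0.082). Bmi1 is the marked member, with densities of 5.03 and 4.42 in clone A, against 3.71 and 3.62 in clone B. Among 16 genes of the totipotent 2-cell stage 0 were higher and 4 lower (median -0.13), with Duxf3 at -0.50 (densities of 1.90 and 1.92 against 2.36 and 2.43) and Sp110 at -0.39 (-0.31 and -0.20 with TMM factors). Many of these genes lie in repeated families whose copies share sequence, so their counts are uncertain.

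Of 44 cytosolic ribosomal protein genes 0 were higher and 1 lower, of 53 oxidative phosphorylation genes 2 and 1, and of 22 proteasome genes 1 and 1. Of 745 olfactory receptor genes 16 were higher and 31 lower (median -0.06, but 0.02 with a curve over mean count), and of 188 vomeronasal receptor genes 10 and 10. Of 240 solute carrier genes 51 were higher and 58 lower, with a median of 0.00; over all genes, 15.5% were higher and 17.6% lower.

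**Figure D5:**
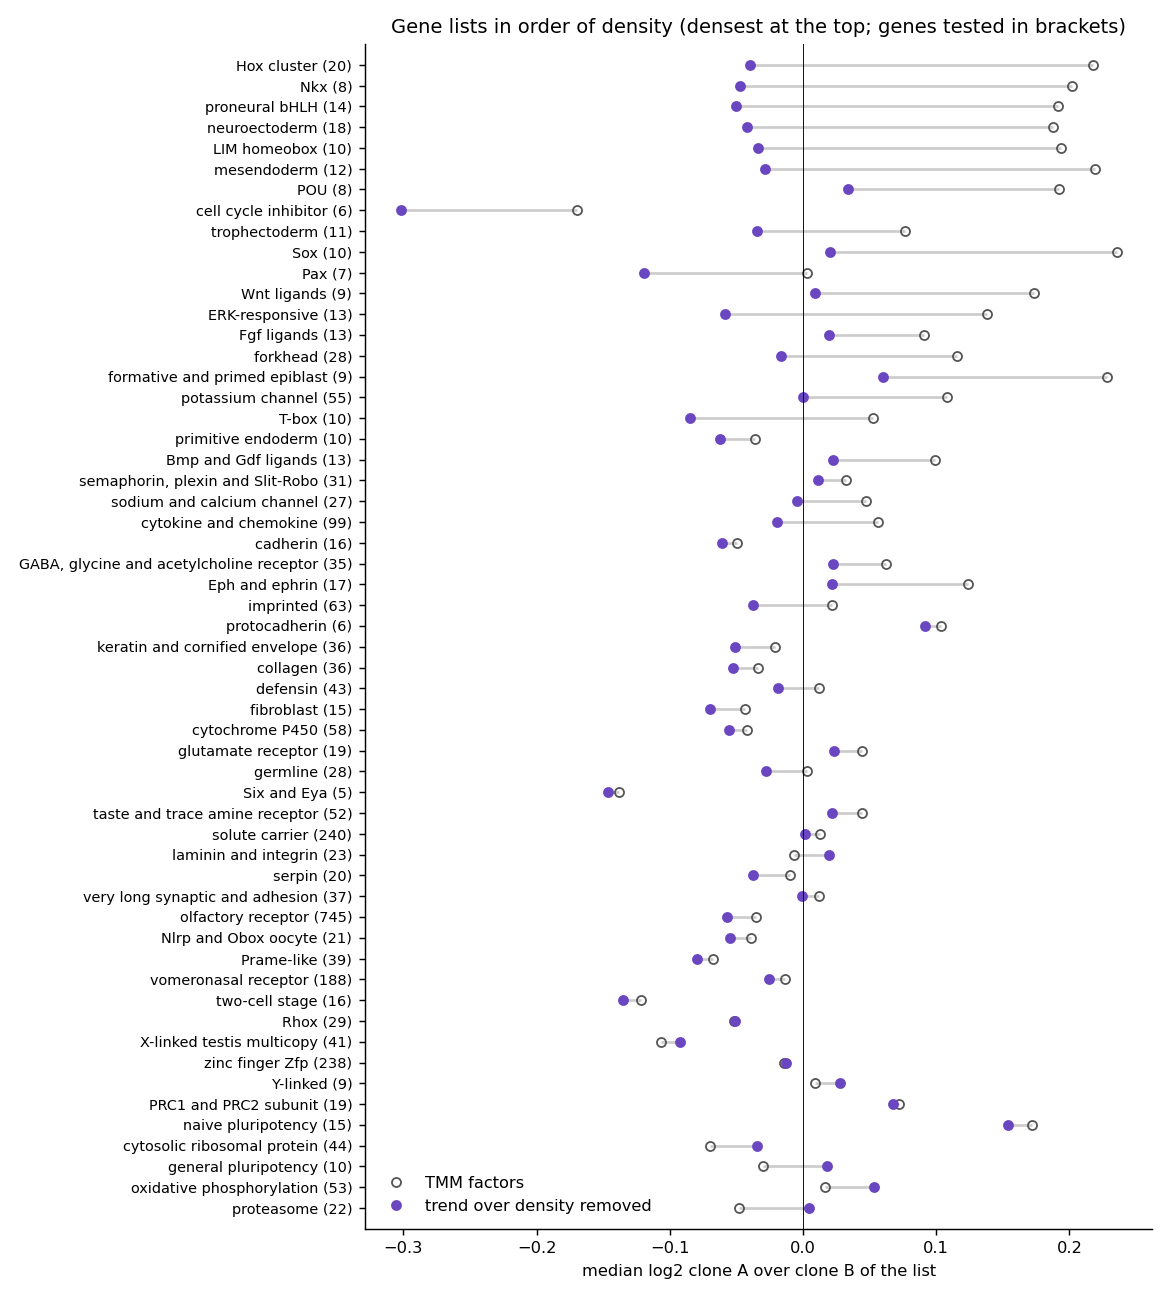
Median log2 ratio of clone A over clone B (x axis) of each gene list with at least 5 genes tested (y axis, ordered by median density); open circles are TMM factors, filled circles the fit with the trend over density removed. The dense lists of developmental regulators move from about 0.2 to near 0, while cell cycle inhibitors move from -0.17 to -0.30.

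In the densest of the 10 groups by density, 23 of 2001 genes were over 1.5-fold higher (1.15%) and 37 lower (1.85%). In the least dense group it was 5 and 10 of 2001. The groups between did not follow a steady order. From the least dense up, group 4 had 28 higher and 65 lower (3.25%), the most lower of any group. Group 7 had 46 higher (2.30%), the most higher of any group, and 20 lower. Of 1159 marked genes, 8 were over 1.5-fold higher (0.69%) and 12 lower (1.04%), beside 247 (1.31%) and 290 (1.54%) of 18851 other genes. Of the 8, the coding genes were Slc25a4, the ADP/ATP carrier of heart and muscle (0.72, SE 0.07; 635 and 815 counts against 403 and 406), Tnnc2, fast muscle troponin C (0.71, SE 0.09), Tbxa2r, the thromboxane receptor (0.62, SE 0.06) and Trh, thyrotropin-releasing hormone (0.62, SE 0.09). Of the 12 lower, Cdkn2a and Cdkn2b were the coding genes. These were named after their values were seen.

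Differences extended over neighbouring genes. Of 905 pairs of successive called genes that did not overlap and lay under 10 kb apart, 81.8% went the same way, as did 77.6% of 107 pairs 200 to 1000 kb apart; among any 2 called genes the share would be 50.2%. Runs of at least 3 called genes in the same direction, at most 300 kb apart, numbered 296 higher and 434 lower. Runs are built from the calls, so the shares called within them are high by rule. The largest run of lower genes was chr7:133776855-137654033, where 32 of 39 genes tested were called lower and 0 higher. It holds Adam12, a metalloprotease (-0.29, SE 0.02), Mgmt, which repairs alkylated guanine (-0.73, SE 0.03; 4559 and 5895 counts in clone A against 8610 and 9214), and Ebf3, a neural factor (-0.22, SE 0.03; -0.07 and not called with TMM factors). At chr6:125552948-127953031, 23 of 42 were lower and 0 higher, among them Ntf3, a neurotrophin (-0.35; -0.22 with TMM factors), Fgf6 (-0.39; -0.19) and Vwf, the platelet adhesion protein (-0.16). At chr7:141429749-142969264, 25 of 54 were lower and 2 higher, from the mucin gene Muc5ac (-0.52, SE 0.04) and Tnni2, a fast muscle troponin (-0.54, SE 0.12), to Igf2. The remaining lower runs of the 5 longest were chr6:52768068-56652514 (25 of 46) and chr7:66254771-69079291 (25 of 36).

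The runs of higher genes with most calls lay in regions with many genes. The rule joins called genes at most 300 kb apart, so it favours such regions. At chr2:28555819-35730994, 65 of 179 genes were higher and 11 lower, including Cercam (0.72, SE 0.04), Prrx2 and the LIM factor Lmx1b (0.18, SE 0.02; 0.40 with TMM factors). At chr7:27656379-31115326 it was 48 of 163, with 10 lower, and at chr10:79356591-81601185 it was 44 of 138, with 14 lower. At chr4:132564067-134767889 it was 33 of 76 and at chr5:112910478-115455698 it was 33 of 82, where Grk3, a receptor kinase, gave 0.65 (SE 0.04). Genes called higher had a median of 23 named genes within 500 kb on either side and genes called lower a median of 15, against 19 over all genes tested. Past 1.5-fold, both directions lay above 19, with a median of 29 for genes higher and 23 for genes lower. Of 5 equal groups of genes by this number, the group with fewest neighbours had 10.3% higher and 25.01% lower, and in the group with most 20.5% were higher and 10.5% lower. With a curve over local gene number also removed, 243 of the 255 genes over 1.5-fold higher and 299 of the 302 lower were called.

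Tighter runs, of at least 2 genes over 1.5-fold at most 100 kb apart, a rule added after the values were seen, numbered 19 higher and 12 lower. They join several genes already described: Rhof with Setd1b, Commd7 with Dnmt3b, Cdkn2a with Cdkn2b, Tnrc18 with Gm31365, and Mirc35hg with BB283400 and Gm31221. Among the others, chosen after their values were seen, were Ctsk with Ctss, both cathepsins, and Gstm1 with Gstm2, both glutathione transferases whose copies share sequence. In the Rhof to Setd1b run 5 of 7 genes within 100 kb were higher and 0 lower.

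Differences over whole chromosomes were small. Over genes below the median density the median log2 ratio lay between -0.02 and 0.00 on chromosomes 1 to 10 and X. Chromosome Y gave -0.13 over 48 such genes (-0.16 at 0 h and -0.07 at 2 h), many of them copies of repeated families. Among these 48, Zfy1 (0.38, SE 0.06) and Uba1y (0.45, SE 0.15) were called higher and Usp9y (-0.14, SE 0.04) lower. Kdm5d (-0.04, SE 0.06), on the same chromosome, did not pass. Uba1y gave 0.23 without clone A at 2 h and 0.29 without clone B at 2 h, and Usp9y -0.11 without clone B at 0 h, -0.17 without clone B at 2 h and -0.028 with centring per chromosome, none called. Of 305 windows of 5 Mb, 2 had sparse genes whose median lay over 0.2 from that of all genes at each time. Both were higher in clone A. At 0 h and 2 h, chr2:175000001-180000000 (18 genes) lay 0.30 and 0.30 above all genes. The window chrX:75000001-80000000 (31 genes) lay 0.21 and 0.22 above, just past the rule. Medians of the values fitted over both times were 0.26 and 0.13. The chromosome 2 window holds mostly genes with Gm and Zfp symbols, many in a repeated zinc finger family. Neither window was picked when all genes were used in place of sparse ones. The input libraries were not analysed here, so a gain of DNA and a gain of mark in these windows were not separated.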

How the data were processed

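H3K27me3 ChIP-seq was compared between clones A and B (2 libraries each, 0 h and 2 h). The authors' deposited values are whole-number read counts for transcript intervals, per the file headers; Bowtie2, bedtools and mm10 are named in the submitters' processing notes, while their versions and the settings of filtering and counting are not stated in what was used here. A further 12 per-library columns were not used. Intervals overlap, so reads are counted more than once, and overlapping genes share them. Genes were named from RefSeq GRCm38.p6. edgeR 4.0.16 quasi-likelihood tests (filterByExpr, time as block, Benjamini-Hochberg over all intervals, 0.05) were run with TMM factors, and with per-interval offsets from a loess curve (limma 3.58.1, span 0.3) over log2 density. SE stands for standard error (log2 scale); a count's Poisson error is its square root and covers counting error only. Library totals ran from 70378127 to 92518605. Clone letters and times are in the labels: each time holds both clones, so time is the block. The fits were also run on simulated independent counts with a fixed dispersion. The simulation had no correlated neighbours and no variation between cultures, so it does not test the calls made here.

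The text names, per direction, the 15 genes of largest change with at least 100 mean counts, the same sign at both times and a symbol that is not Gm with digits or Rik; imprinted, cell cycle inhibitor and Y-linked genes and Esr1; up to 4 densest and 4 most changed genes of each of 61 lists; and members of the 5 longest runs per direction. Members and lists were chosen with earlier results of these data known. Alternatives were DESeq2 1.42.0, other factors, curves, filters and thresholds, and leaving out each library. Some genes that the rule allows are not reported here. R 4.3.3, Python 3.11.15 and pandas were used.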

Additional observations from a re-analysis of the deposited data

Results flagged for a closer look

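The values in this paragraph are the log2 ratio of clone A over clone B at 0 h minus that at 2 h, trend over density removed, for gene lists, chromosomes and genes named above whose ratio had opposite signs at the 2 times. The difference was not tested, since each clone has 1 library per time. The widest gap among lists was that of general pluripotency genes, 0.261, from a median of 0.19 at 0 h to -0.07 at 2 h. Cytosolic ribosomal protein genes gave 0.207, POU genes 0.152, Bmp and Gdf ligands 0.141, serpins 0.109 and germline genes 0.0905. Among other lists the values were Sox 0.0723, mesendoderm 0.0713, semaphorin, plexin and Slit-Robo 0.0465, laminin and integrin 0.0251. Zfp zinc finger genes gave 0.0471, cytokines and chemokines 0.0238 and solute carriers 0.0156. The gap had the other sign for proteasome genes (-0.1), defensins (-0.0918), Wnt ligands (-0.0478), Eph and ephrin genes (-0.0393), potassium channels (-0.014) and forkhead genes (-0.00982). Genes below the median density on chromosomes 1, 10 and X gave 0.0205, 0.0242 and -0.0245. Of single genes that did not pass the test between clones, Cdkn1c gave 0.185, Hoxa6 0.0569, Kcnq1 -0.0725, Magel2 -0.0991 and Kdm5d -0.25.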

How the results depend on the processing

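The 30 genes of largest change kept their direction and their call with TMM factors. They also kept both under every alternative of the fit without the trend that gave them an adjusted p. DESeq2 gave it to 17 of them. No gene over 1.5-fold turned its sign under the alternatives of the fit without the trend. Fits with TMM or other factors were not checked for this over all such genes. These genes and the 30 were chosen for large changes in these same libraries, so kept directions and calls follow largely from the choice. Counts of calls moved more than directions. With TMM factors, DESeq2 called 3430 intervals higher and 1404 lower, a test against a fold of 1.2 called 1729 and 547, and factors from sparse intervals 4363 and 1474; at an adjusted p under 0.01, 3052 were lower. Genes over 1.5-fold were then 164 higher and 39 lower by DESeq2, and 140 lower against a fold of 1.2. With the trend removed, DESeq2 called 3621 and 2995 intervals and the fold of 1.2 gave 1584 and 964; genes over 1.5-fold were 131 and 66 by DESeq2, which gave no adjusted p to 125 of the 255 and 236 of the 302 and called all that had one, and 200 lower against a fold of 1.2. Higher calls were 74.7% of called intervals with factors from sparse intervals and 76.0% against a fold of 1.2, beside 62.8% with TMM factors.

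Leaving out each library in turn gave 5252 to 8061 intervals higher and 3414 to 4398 lower with TMM factors, and 5636 to 8034 higher and 4986 to 7891 lower with the trend removed. The lowest of the last 2 came without the 0 h library of clone B; without its 2 h library they were 5950 and 5352. These fits had no time term, and the lone library was assumed to vary like the other clone. Of the 255 and 302 genes over 1.5-fold, 212 to 232 and 225 to 259 were still called.

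Without the replicate block for time, 8649 intervals were higher and 5188 lower with TMM factors, and 8111 and 8029 with the trend removed. Genes over 1.5-fold were then 331 and 267 with TMM factors, and 256 and 302 with the trend removed.

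Lists with a median of at least 0.1 higher in clone A were 1 as reported, 16 with TMM factors, 5 at 0 h alone, 0 at 2 h alone and 2 with local gene number also removed, an alternative added after seeing the data; lists lower were 4, and 7 at 0 h alone. Windows higher fell from 2 to 0 with all genes, and runs were 19 and 12 when only genes over 1.5-fold counted. Among named genes called in either fit, signs turned with TMM factors for Igf2 (0.13), Kcnq1 (0.16), Cdkn1c (0.21), Cdkn2c (0.13), Pax6 (0.042), Pax1 (0.11), Pax8 (0.0027), Pax7 (0.13), Bcor (0.0052), Hoxd3 (0.11), Hoxa7 (0.14) and Hoxd4 (0.15). With a curve over mean count they turned for Igf2 (0.10), Kcnq1 (0.25), Cdkn2c (0.072), Pax6 (0.030), Pax1 (0.061), Pax5 (0.012), Pax7 (0.14), Bcor (0.011), Hoxd3 (0.12), Hoxa7 (0.077) and Hoxd4 (0.10). Leaving out each library, Cdkn2c ran from -0.242 without the 0 h library of clone A to 0.012 without its 2 h library. The cause was not tested. Genes with few counts are limited by depth.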
